A study of Mus musculus with 6 samples.

Results

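Immunoglobulin variable segments (V segments) are described here in mRNA sequencing libraries of ovaries from the hybrid mouse strain BDF1. The segments are the genes whose RefSeq symbols, matched by NCBI Gene ID, begin with Ighv (heavy chain), Igkv (kappa light chain) or Iglv (lambda light chain) and whose abundance reached a TPM of 1 in at least 1 of the 6 libraries. TPM is transcript abundance scaled for gene length and library. Of 348 annotated V segments, 127 met this rule, out of 45679 symbols in the tables. They were 57 of 183 Ighv segments on chromosome 12, 67 of 162 Igkv segments on chromosome 6 and all 3 Iglv segments on chromosome 16. The labels give 3 groups of 2 libraries from wild-type mice: old MIT-001 (65 weeks, injected into the abdomen with MIT-001 at 0.5 mg/kg for 7 days), old PBS (65 weeks, PBS injected on the same plan) and young PBS (8 weeks, PBS injected). MIT-001 is a scavenger of reactive oxygen species directed to mitochondria. All groups therefore share the injection, and no library came from uninjected mice. No label ties a library to an animal or to a pool of animals, so any p-value measures only the spread between these libraries, which may be technical.

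A B cell builds its antibody genes by joining a V segment to a J segment, with a D segment between them in the heavy chain, and the V segment encodes most of the domain that binds antigen. A clone of B cells normally uses a single heavy-chain and a single light-chain rearrangement, so the V segments in a tissue's mRNA are a rough record of which clones are there. Plasma cells, the antibody-secreting descendants of B cells, carry far more immunoglobulin mRNA per cell than resting B cells do. Immune cells lie in the stroma of the ovary, and their build-up with age has been described in mice. In mRNA from whole tissue, fewer cells of a type and less RNA per cell cannot be told apart.

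Markers of ovarian cells ran against the age labels. The oocyte growth factor Gdf9 stood at 22.8 and 9.35 TPM in old MIT-001 libraries, 116 and 108 TPM in old PBS libraries and 73.3 and 9.51 TPM in young PBS libraries. The 12 oocyte genes listed summed to 90.3 and 47.7 TPM in old MIT-001, 499 and 534 TPM in old PBS and 333 and 38.5 TPM in young PBS. Old PBS libraries thus held the most oocyte RNA and, as shown next, the least V segment RNA, and every group name below is the label's. Depth was similar, at 6.34 to 7.14 gigabases of aligned reads per library as implied by the deposited coverage and FPKM, and a TPM of 1 equals 8.07 to 10.7 reads over 294 bases, the commonest Ighv length.

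The sequences of 7 segments are shown because they carry the differences described below: Igkv2-109, Igkv3-12, Igkv6-15, Ighv1-78 and Ighv1-14 each stood high in a single library or group of libraries, Igkv3-7 is the nearest relative of Igkv3-12 with another pattern, and Iglv1 had the highest mean TPM of the lambda segments. Each is 280 bases of the V exon from GENCODE M21 transcripts on GRCm38 (mm10), 5′ to 3′ in the sense of the gene. Capitals mark TACTGT or TTCTGT, which encode the tyrosine or phenylalanine and the cysteine near the end of the V segment, except in Igkv3-7, where they mark the bases that differ from Igkv3-12.
Igkv2-109: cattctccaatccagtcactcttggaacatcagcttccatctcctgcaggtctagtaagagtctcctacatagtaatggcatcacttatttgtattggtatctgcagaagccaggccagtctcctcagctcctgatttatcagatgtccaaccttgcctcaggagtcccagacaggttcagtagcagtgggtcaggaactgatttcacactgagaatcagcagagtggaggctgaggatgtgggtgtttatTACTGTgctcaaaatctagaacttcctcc
Igkv3-12: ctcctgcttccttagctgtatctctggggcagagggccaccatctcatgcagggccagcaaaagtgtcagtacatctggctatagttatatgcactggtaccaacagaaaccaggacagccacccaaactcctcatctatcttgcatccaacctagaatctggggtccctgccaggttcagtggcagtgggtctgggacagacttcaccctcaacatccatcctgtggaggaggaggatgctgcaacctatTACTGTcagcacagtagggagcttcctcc
Igkv3-7: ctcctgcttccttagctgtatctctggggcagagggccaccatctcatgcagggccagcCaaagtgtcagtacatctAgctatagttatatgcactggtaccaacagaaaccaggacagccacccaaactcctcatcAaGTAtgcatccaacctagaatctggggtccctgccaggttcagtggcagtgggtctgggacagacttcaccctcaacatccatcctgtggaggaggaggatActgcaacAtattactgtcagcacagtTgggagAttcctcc
Igkv6-15: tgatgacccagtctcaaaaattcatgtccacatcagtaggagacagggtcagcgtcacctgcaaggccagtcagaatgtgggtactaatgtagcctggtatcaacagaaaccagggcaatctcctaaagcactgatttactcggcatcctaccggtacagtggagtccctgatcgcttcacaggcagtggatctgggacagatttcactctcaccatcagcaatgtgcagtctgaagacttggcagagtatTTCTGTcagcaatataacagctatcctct
Ighv1-78: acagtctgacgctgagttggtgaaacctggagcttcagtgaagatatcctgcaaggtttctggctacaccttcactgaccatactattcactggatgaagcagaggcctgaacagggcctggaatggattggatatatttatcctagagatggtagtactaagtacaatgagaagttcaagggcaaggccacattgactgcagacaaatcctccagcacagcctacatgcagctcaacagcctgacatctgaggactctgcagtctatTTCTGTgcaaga
Ighv1-14: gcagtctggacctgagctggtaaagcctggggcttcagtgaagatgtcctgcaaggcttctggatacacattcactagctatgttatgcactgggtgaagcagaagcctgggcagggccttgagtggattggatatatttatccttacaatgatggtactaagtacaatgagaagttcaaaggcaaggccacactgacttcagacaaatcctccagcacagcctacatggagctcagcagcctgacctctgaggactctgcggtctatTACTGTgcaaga
Iglv1: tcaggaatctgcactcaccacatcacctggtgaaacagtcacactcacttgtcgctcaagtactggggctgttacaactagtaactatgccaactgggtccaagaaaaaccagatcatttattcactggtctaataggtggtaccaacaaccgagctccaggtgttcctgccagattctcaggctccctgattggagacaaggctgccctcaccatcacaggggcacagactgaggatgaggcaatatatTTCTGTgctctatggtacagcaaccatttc
Igkv2-109 is chr6:68302879-68303158, Igkv3-12 chr6:70518570-70518849 and Igkv3-7 chr6:70607757-70608036, all on the plus strand. Igkv6-15 is chr6:70406469-70406748, Ighv1-78 chr12:115868773-115869052, Ighv1-14 chr12:114646572-114646851 and Iglv1 chr16:19085017-19085296, all on the minus strand.

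TACTGT or TTCTGT lay in the last 60 bases, read on the sense strand, of 72.4% of the 127 members, against 61.2% of the 219 other annotated V segments with a sequence and 65.3% of all 346. Other codons for the same residues were not counted and the reading frame was not checked, so these are not shares of segments with the residues. Only 3 of the 123 segments that RefSeq types as pseudogenes were members. Igkv3-7 and Igkv3-12 differed at 10 of the 280 bases printed and were 96.8% identical over the exon. Near-identical neighbours were common: the median identity of a member to its nearest annotated V segment was 96.1% for Ighv and 94.4% for Igkv, and 34 of 57 Ighv, 29 of 67 Igkv and 2 of 3 Iglv members had a relative at 95% identity or more. Values of single segments with such a relative are uncertain, because reads can be divided between copies. The reference is C57BL/6J while BDF1 mice also carry another parental genome, and how reads from other alleles or from mutated rearrangements were placed was not tested.

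The libraries differed most in how much V segment RNA they held. Summed over all 348 annotated segments, V segment TPM was 572 and 61.2 in old MIT-001, 8.28 and 7.44 in old PBS and 662 and 122 in young PBS. The 4 old MIT-001 and young PBS libraries all lay above both old PBS libraries, and within each of those groups replicate 1 was far above replicate 2. In reads of 101 bases, the length the coverage values imply, these sums correspond to about 5936 and 574 reads in old MIT-001, 78.2 and 70.0 in old PBS and 8234 and 1284 in young PBS. The old PBS values for single segments therefore rest on a few reads each.

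In each chain the old MIT-001 and young PBS libraries lay above both old PBS libraries, and in each of those groups replicate 1 lay above replicate 2. Kappa segments summed to 442 and 39.9 TPM in old MIT-001, 4.13 and 4.08 TPM in old PBS and 489 and 74.3 TPM in young PBS. Heavy-chain segments summed to 117 and 15.5 TPM in old MIT-001, 3.78 and 3.37 TPM in old PBS and 161 and 43.8 TPM in young PBS. Lambda segments, the minor light chain of mice, summed to 13.7 and 5.81 TPM in old MIT-001, 0.368 and 0 TPM in old PBS and 12.6 and 3.83 TPM in young PBS. The ratio of kappa to heavy-chain V segment TPM was 3.79 and 2.57 in old MIT-001, 1.09 and 1.21 in old PBS and 3.04 and 1.70 in young PBS, so heavy and kappa sums were closest where V segment RNA was lowest. The sums of the old MIT-001 and young PBS libraries overlapped in each chain.

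**Figure D1:**
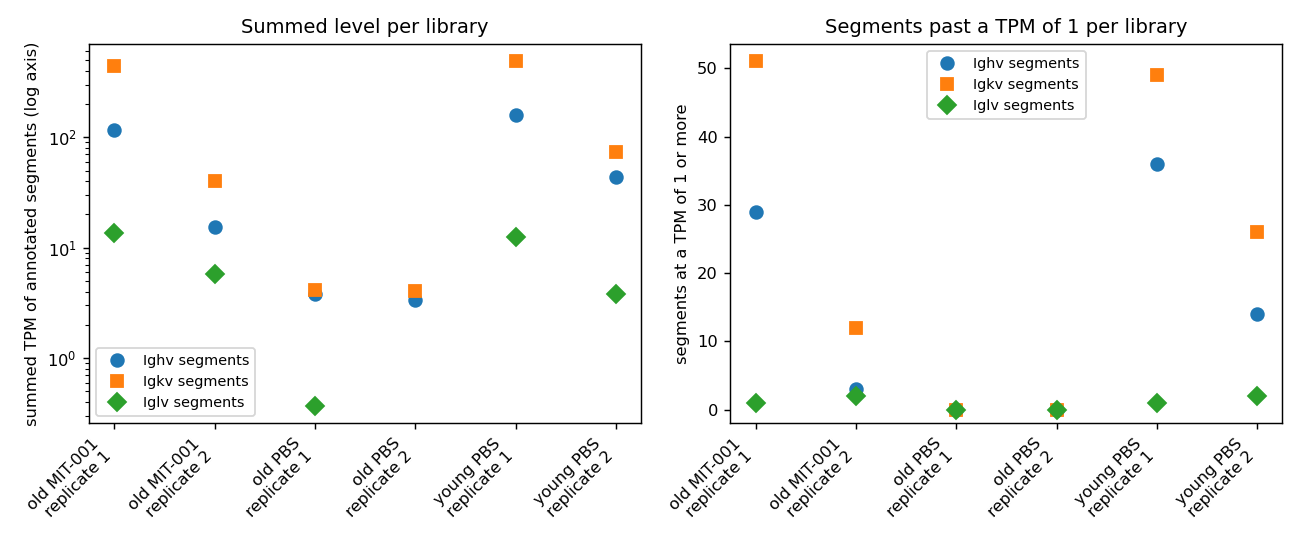
Summed TPM of the annotated Ighv, Igkv and Iglv segments (left, log axis) and the number of segments at a TPM of 1 or more (right) in each of the 6 libraries; each point is a library and chain, and a sum of 0 (Iglv in old PBS replicate 2) is not drawn. Kappa sums run from 4.08 TPM in old PBS to 489 TPM in young PBS, and no segment reaches a TPM of 1 in either old PBS library.

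The number of segments at a TPM of 1 or more followed these sums. It was 81 and 17 in old MIT-001, 0 and 0 in old PBS and 86 and 42 in young PBS, and since this count is the rule by which members were chosen it is given as a description without a test. The members just inside the limit were Ighv1-19, Ighv1-34 and Ighv6-6, with highest values of 1.04, 1.05 and 1.06 TPM. Just outside were Ighv5-9-1, Igkv1-132 and Igkv12-89, at 0.997, 0.985 and 0.977 TPM. Of the 127 members, 84 were listed at 0 in both old PBS libraries, and the highest old PBS value of any member was 0.809 TPM, of Ighv5-17.

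Few segments reached a TPM of 1 in many libraries, a count that the V segment sums limit. Because 17 passed it in old MIT-001 replicate 2 and 0 in old PBS, at most 17 could pass it in 4 libraries. Of the members, 60 reached a TPM of 1 in 1 library, 43 in 2, 16 in 3 and 8 in all 4 libraries of old MIT-001 and young PBS. Those seen in a single library were mostly from the libraries with the largest sums: 25 in old MIT-001 replicate 1 and 29 in young PBS replicate 1, against 2 in old MIT-001 replicate 2 and 4 in young PBS replicate 2. Old MIT-001 replicate 1 and young PBS replicate 1 shared 46 segments, which is 56.8% of the 81 and 53.5% of the 86, and 2 of their 10 highest segments. The replicates of old MIT-001 shared 15 segments, 18.5% of the 81 and 88.2% of the 17, and those of young PBS shared 32, 37.2% of the 86 and 76.2% of the 42. Each of these replicate pairs shared 1 of its 10 highest segments, so most of the leading segments differed between replicates. Pairs of an old MIT-001 and a young PBS library shared 1 to 4, with 4 between replicate 2 of each.

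Kappa segments held the highest single values. Igkv2-109 stood at 120 and 0.457 TPM in old MIT-001, 0.185 and 0 TPM in old PBS and 3.29 and 0.619 TPM in young PBS. It was 27.1% of the kappa TPM of old MIT-001 replicate 1, its leading segment, and 1.15% of that of replicate 2. The deposited tables give no sequence of the joined gene, so how many clones gave this value was not tested.

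In young PBS replicate 1 the leader was Igkv3-12, at 5.45 and 1.92 TPM in old MIT-001, 0 and 0 TPM in old PBS and 97.7 and 0.258 TPM in young PBS. Igkv3-7, the relative printed beside it, stood at 28.7 and 0.327 TPM in old MIT-001, 0 and 0 TPM in old PBS and 4.49 and 1.20 TPM in young PBS. The libraries in which these near-identical segments were highest differed: young PBS replicate 1 for Igkv3-12 and old MIT-001 replicate 1 for Igkv3-7. Igkv6-15 stood at 4.81 and 2.91 TPM in old MIT-001, 0 and 0 TPM in old PBS and 66.3 and 3.36 TPM in young PBS. Igkv8-30 stood at 5.86 and 1.07 TPM in old MIT-001, 0 and 0 TPM in old PBS and 42.7 and 0.350 TPM in young PBS. In both, young PBS replicate 1 stood apart from young PBS replicate 2, whose value overlapped or lay below the old MIT-001 values.

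Igkv3-10 was high in both libraries of largest sum, at 26.1 and 0.301 TPM in old MIT-001, 0 and 0 TPM in old PBS and 18.0 and 0 TPM in young PBS. Igkv6-32 stood at 12.8 and 0.206 TPM in old MIT-001, 0 and 0.432 TPM in old PBS and 23.2 and 1.55 TPM in young PBS. Igkv3-5 and Igkv3-2 were likewise highest in young PBS replicate 1, at 24.6 and 22.9 TPM, with 5.03 and 6.29 TPM in old MIT-001 replicate 1. Igkv19-93 was highest in old MIT-001 replicate 1, at 19.4 TPM, and no other library passed 2.33 TPM.

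Other kappa segments were lower but present in most libraries outside old PBS. Igkv15-103, the segment with the smallest adjusted p of old MIT-001 against old PBS and named after its values were seen, stood at 1.80 and 1.95 TPM in old MIT-001, 0 and 0 TPM in old PBS and 1.91 and 1.62 TPM in young PBS. Igkv10-96 stood at 3.29 and 2.02 TPM in old MIT-001, 0.604 and 0 TPM in old PBS and 5.78 and 4.60 TPM in young PBS. Its relative Igkv10-94 stood at 0.613 and 0.349 TPM in old MIT-001, 0.201 and 0 TPM in old PBS and 3.58 and 5.42 TPM in young PBS, and led the kappa segments of young PBS replicate 2 with 7.29% of their TPM. Igkv10-94 was thus higher in both young PBS libraries than in the other 4, without overlap. Igkv1-110 stood at 11.7 and 2.97 TPM in old MIT-001, 0.177 and 0.246 TPM in old PBS and 3.13 and 1.95 TPM in young PBS, and led old MIT-001 replicate 2 with 7.45% of its kappa TPM.

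Heavy-chain segments reached lower values and the leaders again differed between libraries. Ighv1-78 stood at 0 and 0.124 TPM in old MIT-001, 0 and 0 TPM in old PBS and 25.8 and 0.485 TPM in young PBS, where it was 16.0% of the heavy-chain V segment TPM of replicate 1. Ighv1-14 stood at 11.4 and 1.40 TPM in old MIT-001, 0 and 0 TPM in old PBS and 0.148 and 0.636 TPM in young PBS, and was 9.75% and 9.06% of the chain in the old MIT-001 libraries. RefSeq lists Ighv1-14 as a V segment and GENCODE M21 as a pseudogene. Ighv1-26 was listed at 0 in both old MIT-001 and both old PBS libraries and stood at 7.90 and 1.24 TPM in young PBS. Ighv6-3 stood at 4.65 and 2.21 TPM in old MIT-001, 0.701 and 0 TPM in old PBS and 0.984 and 0.605 TPM in young PBS. Ighv6-3 and Ighv1-14 were therefore higher in both old MIT-001 libraries than in the other 4, while Ighv1-26 was above 0 in the young PBS libraries alone.

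Ighv3-6 stood at 6.45 and 0.306 TPM in old MIT-001, 0 and 0 TPM in old PBS and 14.3 and 2.23 TPM in young PBS. Ighv1-53 stood at 1.75 and 0.290 TPM in old MIT-001, 0 and 0 TPM in old PBS and 16.2 and 1.26 TPM in young PBS. Both followed the summed heavy-chain TPM of the libraries. Ighv1-4 and Ighv14-3 were highest in old MIT-001 replicate 1, at 7.93 and 7.39 TPM, and did not pass 1.37 TPM in another library. Ighv1-42 stood at 0.958 and 0.924 TPM in old MIT-001, 0 and 0 TPM in old PBS and 6.13 and 1.02 TPM in young PBS. Ighv7-3, a pseudogene in RefSeq and a gene in GENCODE M21, was among the 8 members past a TPM of 1 in 4 libraries, at 2.64 and 1.10 TPM in old MIT-001, 0.362 and 0 TPM in old PBS and 2.48 and 3.29 TPM in young PBS.

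Segments among the highest of the old PBS libraries differed in their levels elsewhere. Ighv5-17 led old PBS replicate 1 and stood at 0.227 and 0.476 TPM in old MIT-001, 0.809 and 0 TPM in old PBS and 0.422 and 2.62 TPM in young PBS. Ighv1-18 led old PBS replicate 2 and stood at 0.211 and 0.654 TPM in old MIT-001, 0 and 0.565 TPM in old PBS and 2.99 and 0.498 TPM in young PBS. Ighv2-6 stood at 1.18 and 0 TPM in old MIT-001, 0 and 0.469 TPM in old PBS and 1.55 and 1.29 TPM in young PBS. Igkv8-19 stood at 2.86 and 0 TPM in old MIT-001, 0.670 and 0 TPM in old PBS and 2.96 and 0.633 TPM in young PBS. None of these was above 0 in both old PBS libraries or passed 2.99 TPM in any library, whereas Igkv6-32 and Ighv6-3, also among the 3 highest members of an old PBS library, reached 23.2 TPM in young PBS replicate 1 and 4.65 TPM in old MIT-001 replicate 1.

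Among the lambda segments Iglv1 had the highest mean, at 12.6 and 2.43 TPM in old MIT-001, 0.368 and 0 TPM in old PBS and 11.5 and 2.48 TPM in young PBS. It was 92.1% and 91.7% of the lambda V segment TPM in replicate 1 of old MIT-001 and of young PBS, and 41.8% and 64.7% in replicate 2. Iglv3, with 58.2% of the lambda V segment TPM there, was the highest of all V segments in old MIT-001 replicate 2, and stood at 0.302 and 3.38 TPM in old MIT-001, 0 and 0 TPM in old PBS and 0.195 and 0.158 TPM in young PBS. Iglv2, 96.4% identical to Iglv1, stood at 0.778 and 0 TPM in old MIT-001, 0 and 0 TPM in old PBS and 0.849 and 1.19 TPM in young PBS.

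**Figure D2:**
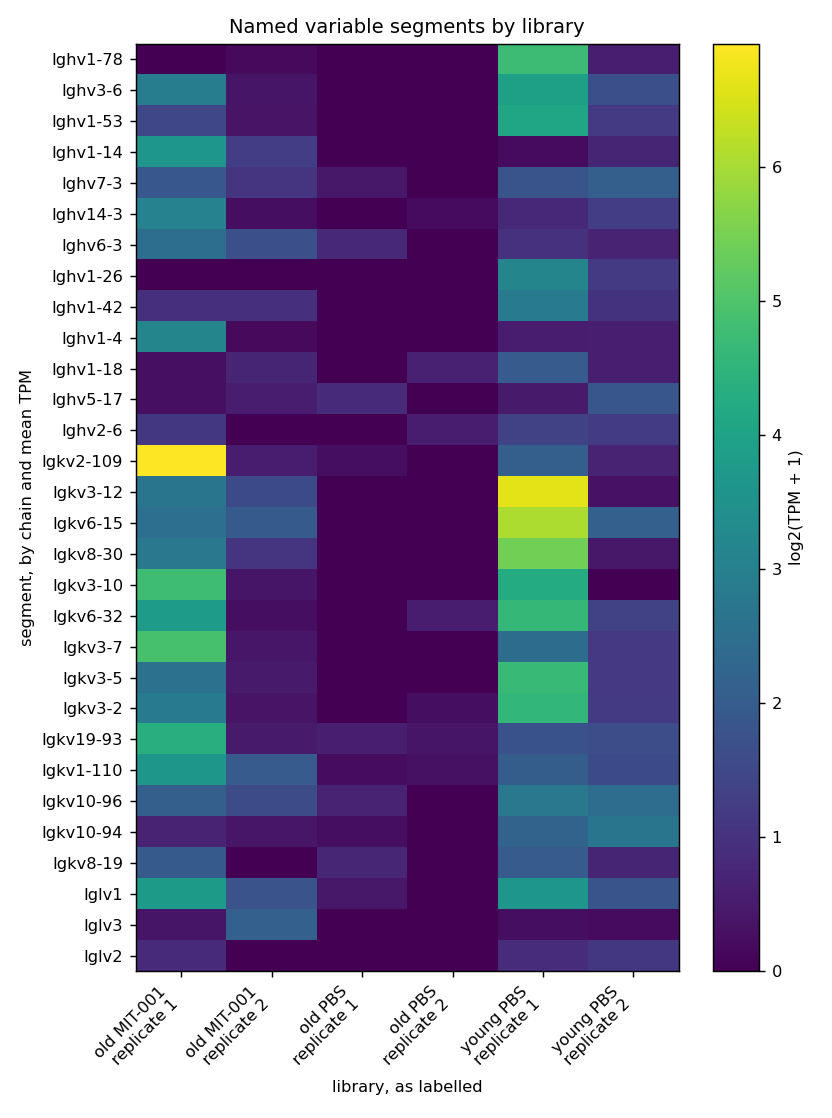
Colour gives log2(TPM + 1) of 30 named V segments (rows, by chain and mean TPM) in the 6 libraries (columns). The brightest cells are in replicate 1 of old MIT-001 (Igkv2-109, 120 TPM) and of young PBS (Igkv3-12, 97.7 TPM), and the old PBS columns are dark throughout, with no value above 0.809 TPM.

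Evenness of use was measured within a chain, from the share of the chain's TPM that each segment held, by the inverse Simpson index, which gives the number of equally used segments that would yield the same concentration. For kappa segments the index was 10.7 and 28.0 in old MIT-001, 10.7 and 14.5 in old PBS and 12.6 and 37.1 in young PBS. The libraries with the most kappa RNA in old MIT-001 and young PBS had the less even use, and the groups overlapped in every pair. The 5 highest kappa segments held 48.1% and 31.1% of the chain in old MIT-001, 59.3% and 45.9% in old PBS and 52.1% and 26.1% in young PBS. For heavy-chain segments the index was 24.9 and 19.2 in old MIT-001, 7.50 and 11.2 in old PBS and 17.5 and 35.5 in young PBS, so the old PBS libraries lay below the other 4. The index cannot exceed the number of segments above 0, which for heavy-chain segments was 12 and 19 in old PBS. Those rest on about 32.8 and 29.0 heavy-chain reads, against 131 to 1777 in the other libraries. Young PBS replicate 2 set much of the differences: for old PBS against young PBS the mean difference was -12.3 for kappa and -17.2 for heavy-chain segments, -0.0248 and -8.15 without young PBS replicate 2 and -24.5 and -26.2 without young PBS replicate 1. Pielou evenness, which is scaled by the number of segments above 0, gave the other order of old PBS against the other groups' means, with heavy-chain values of 0.826 and 0.878 in old MIT-001, 0.882 and 0.900 in old PBS and 0.794 and 0.900 in young PBS. With 2 libraries against 2, the exact two-sided permutation test cannot give a p below 0.333, and the 12 comparisons of the index and of Pielou evenness gave p from 0.333 to 1 (1 in each after Benjamini-Hochberg adjustment).

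**Figure D3:**
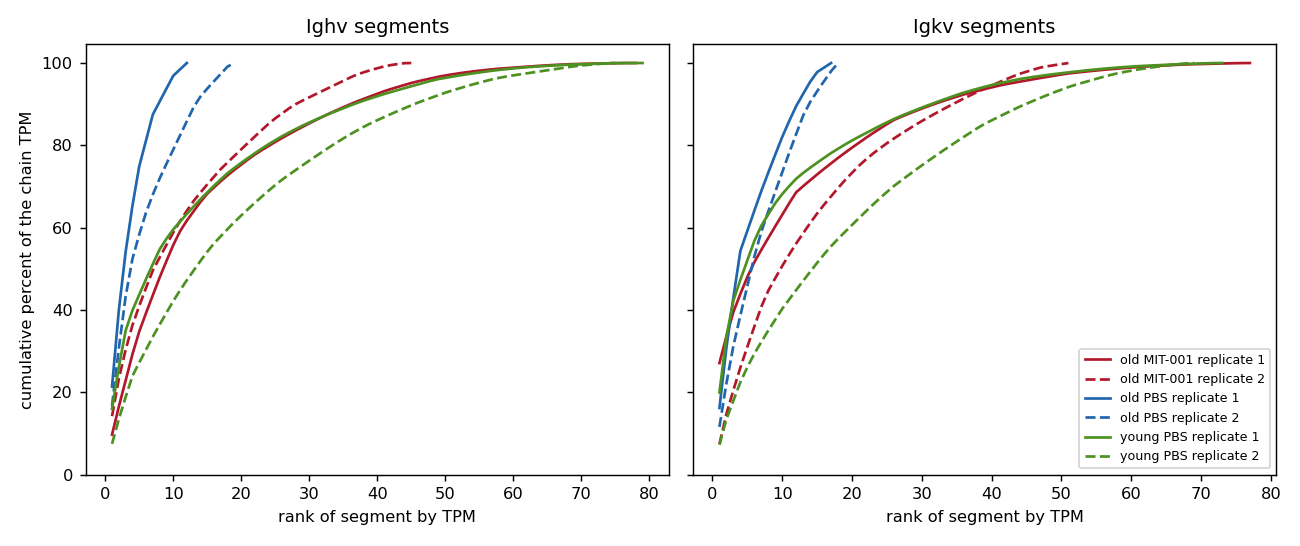
Cumulative percent of the chain's TPM (y axis) held by the segments ranked by TPM (x axis), for heavy-chain (left) and kappa (right) segments, with a line per library. The old PBS lines end after few segments, and the dashed line of young PBS replicate 2 rises most slowly, with 26.1% of kappa TPM in its 5 highest segments.

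V segments are grouped into families by sequence. The Ighv1 family, the largest of the mouse heavy chain, held 31 of the 57 heavy-chain members, from 92 annotated segments, and 53.3% and 51.8% of heavy-chain V segment TPM in old MIT-001, 44.2% and 42.5% in old PBS and 66.4% and 50.3% in young PBS. Among kappa families, all 9 Igkv6 segments, 9 of 13 Igkv3 segments and 14 of 33 Igkv4 segments were members. Igkv3, to which Igkv3-12 and Igkv3-7 belong, held 20.5% and 8.93% of kappa TPM in old MIT-001, 2.92% and 8.04% in old PBS and 36.2% and 10.2% in young PBS. Igkv2 held 27.5% in old MIT-001 replicate 1, nearly all of it Igkv2-109, and at most 4.49% in the other libraries. The Igkv4 family held 10.9% and 23.2% in old MIT-001, 3.86% and 21.4% in old PBS and 7.12% and 13.8% in young PBS. The Ighv1 share was lowest in both old PBS libraries, where it rests on about 32.8 and 29.0 reads of all heavy-chain V segments. Kappa family shares differed widely between replicates of a group.

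Members were spread along the whole of both large loci. Of the 81 Igkv segments nearest to Igkc, the kappa constant gene, 41 were members, against 26 of the 81 farther ones, split at 1491 kb. The nearer segments held 47.3% and 54.0% of kappa TPM in old MIT-001, 33.6% and 49.0% in old PBS and 80.5% and 54.3% in young PBS. Young PBS replicate 1 stood apart there, and its 4 highest kappa segments named above, Igkv3-12, Igkv6-15, Igkv8-30 and Igkv3-5, lie 208, 320, 609 and 63.0 kb from Igkc. Igkv2-109, the leader of old MIT-001 replicate 1, lies 2424 kb away. Among heavy-chain segments, 31 of the 91 nearest to Ighm and 26 of the 92 farther ones were members, and the nearer ones held 67.7% and 61.6% of heavy-chain V segment TPM in old MIT-001, 55.8% and 56.1% in old PBS and 36.3% and 53.7% in young PBS. Kappa segments lie in both orientations, and 27 of 77 on the plus strand and 40 of 85 on the minus strand were members.

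**Figure D4:**
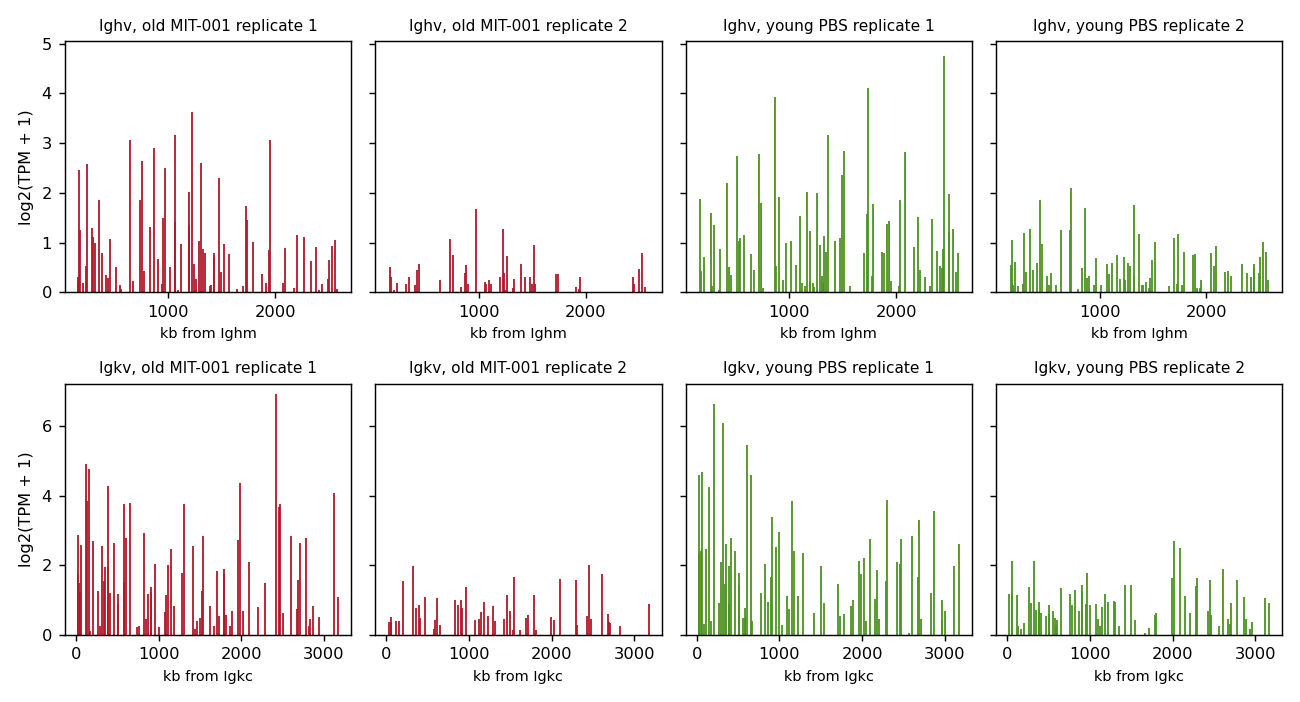
Height gives log2(TPM + 1) of every annotated Ighv segment (top) and Igkv segment (bottom) against its distance in kb from Ighm or Igkc, in the libraries of old MIT-001 and young PBS. Signal runs along the full length of both loci, with the tall Igkv2-109 bar at 2424 kb in old MIT-001 replicate 1 and tall bars at 208, 320 and 609 kb in young PBS replicate 1.

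Members were mostly annotated as intact genes: 124 members were among the 225 segments that RefSeq types as V segments (55.1%), and 3 among the 123 typed as V segment pseudogenes (2.44%). The 3 were Ighv7-3, Ighv1-62 and Igkv14-126. Ighv1-62 stood at 7.40 and 0.239 TPM in old MIT-001, 0 and 0 TPM in old PBS and 0.166 and 0.197 TPM in young PBS. Igkv14-126 did not pass 1.30 TPM in any library.

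The constant genes, which every rearranged V segment is transcribed with, were set beside the V segments. Igkc stood at 887 and 73.8 TPM in old MIT-001, 9.50 and 10.6 TPM in old PBS and 1340 and 174 TPM in young PBS. The ratio of kappa V segment TPM to Igkc TPM was 0.498 and 0.541 in old MIT-001, 0.434 and 0.385 in old PBS and 0.365 and 0.426 in young PBS, so it varied far less than either sum. The ratio of Ighv TPM to the TPM of all heavy-chain constant genes was 0.263 and 0.296 in old MIT-001, 0.345 and 0.239 in old PBS and 0.327 and 0.391 in young PBS.

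**Figure D5:**
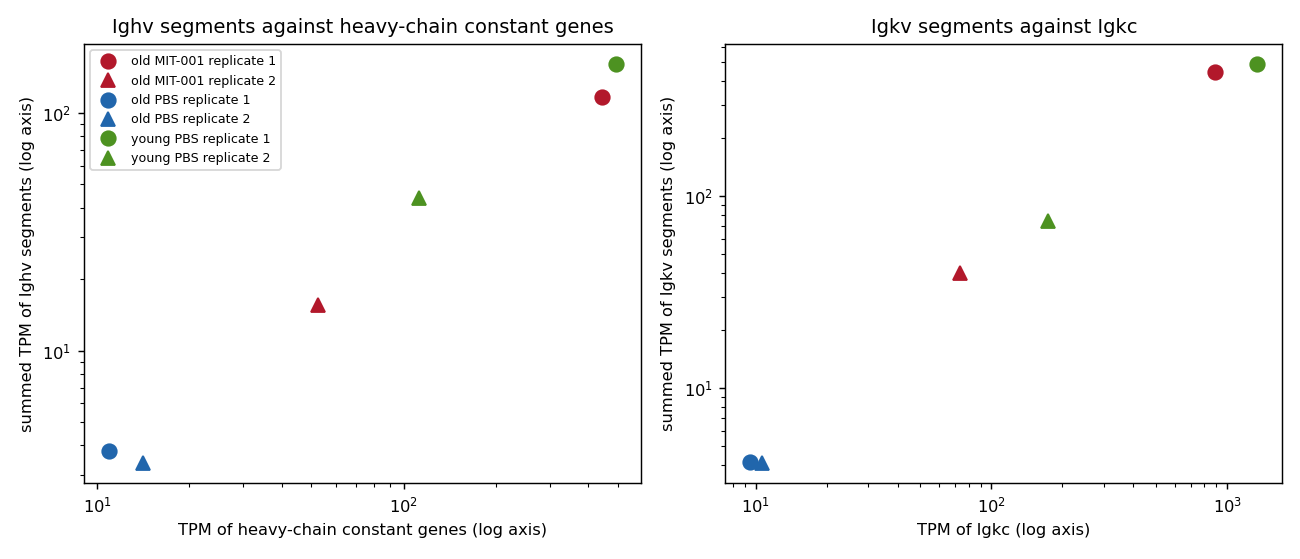
Summed TPM of Ighv segments against the heavy-chain constant genes (left) and of Igkv segments against Igkc (right), both on log axes, with a point per library. Kappa V segment sums climb with Igkc, from the old PBS libraries at 9.50 and 10.6 TPM of Igkc, which nearly coincide, to young PBS replicate 1 at 1340 TPM.

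The shares of the heavy-chain constant genes differed between libraries, while which class each V segment was joined to was not measured. IgG genes (Ighg1, Ighg2b, Ighg2c and Ighg3) were 76.7% and 17.5% of heavy-chain constant TPM in old MIT-001, 18.7% and 13.8% in old PBS and 44.9% and 17.8% in young PBS. Igha, the constant gene of IgA, the antibody class of mucosal surfaces, was 3.29% and 43.1% in old MIT-001, 14.0% and 18.4% in old PBS and 12.1% and 58.3% in young PBS. Ighm, the constant gene of IgM, was 18.2% and 38.3% in old MIT-001, 64.6% and 62.2% in old PBS and 41.5% and 22.8% in young PBS. The libraries with the most V segment RNA were thus those with the largest IgG share, and replicate 2 of old MIT-001 and of young PBS had the largest IgA share. The Ighm share was largest in both old PBS libraries, where all heavy-chain constant genes held 11.0 and 14.1 TPM.

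Across groups, limma was fitted to log2(TPM + 1) of the 16473 genes that reached a TPM of 1 in 2 or more libraries, and fold changes on that scale understate changes of low values. Of the 127 members, 67 passed this filter and 60 did not. Those that passed did so through old MIT-001 and young PBS libraries, since no member reached a TPM of 1 in old PBS, so the counts below describe them and support nothing. The 3 comparisons also share their groups. Of the 67, 42 were listed at 0 in both old PBS libraries, and no fold against old PBS is given for a single one of these, though the medians below include them.

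For old MIT-001 against old PBS, 0 of 67 segments passed an adjusted p of 0.05 in limma, where 0.0182% of all genes were called higher and 0% lower. At an unadjusted p below 0.05, 14 were higher (7.45% of all genes) and 0 lower (4.36%). In 47 both old MIT-001 libraries lay above both old PBS libraries (27.2% of all genes), and in 0 both lay below (24.2%). The fold change was above 0 in 64 of 67 (53.5% of all genes) and below 0 in 1 (46.5%), with a median log2 fold change of 1.26, against 0.03 over all genes, and a median of 1.49 over the 25 segments above 0 in an old PBS library. With a pseudocount of 0.1 these medians were 3.22 and 3.14, so their size rests on the pseudocount. Igkv1-110 had a log2 fold change of 2.55 ± 0.574 (SE) and a limma adjusted p of 0.192. Iglv1 had a log2 fold change of 2.55 ± 0.835 and a limma adjusted p of 0.316. Igkv2-109, with the largest log2 fold change of the members, 3.61 ± 1.89, had a limma adjusted p of 0.549, its old MIT-001 values being 120 and 0.457 TPM. The smallest adjusted p was 0.141, of Igkv15-103. Igkv6-15, at an adjusted p of 0.546, was called with the 4 compared libraries alone (limma adjusted p of 0.0396). The share of all genes called in that fit is not given here, so the call has no background beside it. Its result also changed without young PBS replicate 1 or 2, which leaves 1 library in that group.

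For old PBS against young PBS, 0 of 67 segments passed in limma, where 0.0121% of all genes were called higher and 0.0243% lower. At an unadjusted p below 0.05, 0 were higher (14.6% of all genes) and 27 lower (3.55%). In 60 both old PBS libraries lay below both young PBS libraries (11% of all genes), and in 0 both lay above (38.1%). The fold change was above 0 in 0 of 67 (68.1% of all genes) and below 0 in 67 (31.9%), with a median log2 fold change of -1.46 (-3.71 with a pseudocount of 0.1), against 0.23 over all genes. The smallest adjusted p in limma was 0.131, of Igkv10-94, with a log2 fold change of -2.31 ± 0.336. Igkv6-15 was not called with all 6 libraries (limma adjusted p of 0.224). This changed without young PBS replicate 1 or 2, which leaves 1 library in that group. Igkv10-96 had a log2 fold change of -2.28 ± 0.381 and a limma adjusted p of 0.155. The segment highest in young PBS replicate 1 is among the 42 with no fold. Iglv1 had a log2 fold change of -2.50 ± 0.835 and a limma adjusted p of 0.234.

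For old MIT-001 against young PBS, 0 of 67 segments passed in limma, where 0% of all genes were called in either direction. At an unadjusted p below 0.05, 4 were higher (17.1% of all genes) and 7 lower (0.813%). In 4 segments both old MIT-001 libraries lay above both young PBS libraries (37.3% of all genes), and in 15 both lay below (6.56%). The fold change was above 0 in 27 (69.3% of all genes) and below 0 in 40 (30.7%), with a median log2 fold change of -0.35 (-0.61 with a pseudocount of 0.1), against 0.24 over all genes. Igkv10-94 had a log2 fold change of -1.88 ± 0.336 and a limma adjusted p of 0.161. Ighv6-3 had a log2 fold change of 1.25 ± 0.439 and a limma adjusted p of 0.217, and Ighv1-14 one of 1.99 ± 0.748 with 0.241. Iglv1 had a log2 fold change of 0.05 ± 0.835 and a limma adjusted p of 0.988, with values of 12.6 and 2.43 TPM in old MIT-001 and 11.5 and 2.48 TPM in young PBS.

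The other immunoglobulin genes were taken from lists. Of 13 constant-region and J chain genes, 12 were tested. For old MIT-001 against old PBS 12 of 12 had a log2 fold change above 0 (median 2.64, 0 called), for old PBS against young PBS 12 of 12 were below 0 (median -3.16, 1 called), and 9 of 12 in old MIT-001 against young PBS were below 0 (median -0.26, 0 called). The call was Igha, at 14.6 and 22.5 TPM in old MIT-001, 1.54 and 2.60 TPM in old PBS and 59.7 and 65.4 TPM in young PBS, with a log2 fold change of -4.39 ± 0.317 and a limma adjusted p of 0.0433 for old PBS against young PBS. Igha had close replicates in every group, unlike most V segments. That call was lost with no filter (limma adjusted p of 0.186), no trend (0.0805), the 4 compared libraries alone (0.205) and the replicate block (0.0581). It was kept with a pseudocount of 0.1 (0.0412), FPKM (0.0381) and filters at a TPM of 1 in 1 library (0.0441) or 5 in 2 (0.0409). Median centring (0.0224), quantile normalization (0.0403) and rescaling without immunoglobulin genes (0.0439) also kept it. Leaving out a library, which leaves 1 in its group, gave log2 fold changes of -4.65 to -4.14. The call was lost in all of these fits but the one without young PBS replicate 1. Jchain, which links antibodies into polymers, stood at 42.7 and 5.92 TPM in old MIT-001, 0.266 and 0.560 TPM in old PBS and 33.7 and 4.29 TPM in young PBS. Of 12 J segments, the joining partners of the V segments, 10 were tested and 0 were called in any comparison, with median log2 fold changes of 2.77, -2.38 and -0.21 in the same order of comparisons.

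Igkj1 and Igkj2 were the highest kappa joining segments in replicate 1 of old MIT-001 and in both young PBS libraries. Igkj1 stood at 135 and 0.332 TPM in old MIT-001, 0 and 0 TPM in old PBS and 85.9 and 14.1 TPM in young PBS. Igkj2 stood at 66.1 and 7.47 TPM in old MIT-001, 0.612 and 2.53 TPM in old PBS and 141 and 17.9 TPM in young PBS. The order of these J segments was reversed between the libraries with the largest sums, Igkj1 being the higher in old MIT-001 replicate 1 and Igkj2 in young PBS replicate 1.

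Markers of the cells that carry V segments did not all follow the V segment sums. The 12 plasma cell genes summed to 587 and 551 TPM in old MIT-001, 696 and 570 TPM in old PBS and 385 and 720 TPM in young PBS, and of the 9 tested 0 were called in any comparison. Most of that sum was Sdc1 and Xbp1, which many other cells express, while Tnfrsf17, the receptor that sustains plasma cells, did not pass 0.359 TPM in any library. Mzb1, a chaperone of antibody-making cells, stood at 14.4 and 0.831 TPM in old MIT-001, 2.13 and 1.07 TPM in old PBS and 5.84 and 1.77 TPM in young PBS. Jchain, given above and also on this list, was higher in every old MIT-001 and young PBS library than in old PBS, like the V segments. So was Irf4, at 0.779 and 0.281 TPM in old MIT-001, 0.115 and 0.0591 TPM in old PBS and 0.781 and 0.350 TPM in young PBS. Derl3 was not, at 18.2 and 13.3 TPM in old MIT-001, 39.9 and 52.0 TPM in old PBS and 39.7 and 11.1 TPM in young PBS. The 12 B cell genes summed to 28.3 and 6.73 TPM in old MIT-001, 7.59 and 5.56 TPM in old PBS and 41.4 and 11.0 TPM in young PBS, with 0 of 7 tested called. The B cell sum of old MIT-001 replicate 2 lay between those of the old PBS libraries, whereas its V segment sum lay above both.

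Genes of recombination and of germinal centres, where B cells mature, were near 0 or expressed in all groups. Rag2, part of the enzyme that joins V segments, was listed at 0 in all 6 libraries, and Rag1 did not pass 0.0636 TPM. Of the 10 genes listed 4 were tested and 0 called. Among 8 genes that sustain or attract plasma cells, 6 were tested and 0 called. Tnfsf13, a survival factor, had the smallest p of this list in old MIT-001 against old PBS. It stood at 16.7 and 12.5 TPM in old MIT-001, 0.793 and 2.26 TPM in old PBS and 8.20 and 3.89 TPM in young PBS. Cxcl12, the highest of the list, overlapped between all groups, at 85.6 and 64.7 TPM in old MIT-001, 67.9 and 74.4 TPM in old PBS and 55.6 and 79.1 TPM in young PBS.

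Markers of other cells also differed between these libraries. The 10 T cell genes summed to 53.2 and 23.7 TPM in old MIT-001, 12.0 and 11.1 TPM in old PBS and 53.4 and 33.3 TPM in young PBS, and 0 of the 9 tested were called in any comparison. The 8 macrophage genes summed to 746 and 584 TPM in old MIT-001, 213 and 293 TPM in old PBS and 1229 and 1173 TPM in young PBS, with 2 of 8 called lower in old PBS against young PBS, where 0.0243% of all genes were called lower. T cell sums, like V segment sums, were highest in replicate 1 of old MIT-001 and of young PBS, while the macrophage sums of the young PBS replicates lay close together. The 8 oviduct genes summed to 714 and 433 TPM in old MIT-001, 36.2 and 43.6 TPM in old PBS and 68.4 and 195 TPM in young PBS. Their sum was highest in old MIT-001 replicate 1, and the V segment sum in young PBS replicate 1. Like the V segment sum, many list sums were highest in young PBS replicate 1. They were those of constant-region, B cell, T cell, macrophage, plasma cell niche, adipocyte and lymph node stroma genes. The 6 adipocyte genes summed to 67.7 and 88.9 TPM in old MIT-001, 25.2 and 41.0 TPM in old PBS and 245 and 52.9 TPM in young PBS. Lymph node stroma genes (5 found of 6) summed to 351 and 293 TPM in old MIT-001, 274 and 177 TPM in old PBS and 429 and 171 TPM in young PBS. The 10 granulosa cell genes were highest in old PBS, at 2590 and 3797 TPM in old MIT-001, 7302 and 9229 TPM in old PBS and 3305 and 3040 TPM in young PBS. The part of these cell types, and of tissue taken with the ovary, in the V segment values was not tested.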

How the data were processed

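Messenger RNA of 6 ovary libraries was analysed. Per the submitters' processing notes, Trimmomatic, HISAT2 and StringTie were used with the mm10 build; for versions, annotation and strand setting the sources used here give nothing. Per the file headers, the deposited tables hold TPM, the main measure, FPKM, used as an alternative, and coverage signal, used for depth and read equivalents. No counts were used, so count models were not applied. Rows were matched by Gene ID to RefSeq symbols (GRCm38.p6; 98 rows per library unmatched) and values of a symbol were summed. V exons came from GENCODE M21. A linear model with a mean per group was fitted to log2(TPM + 1) in the 6 libraries by limma (version 3.58.1, on R version 4.3.3) using an intensity trend, two-sided tests and Benjamini-Hochberg adjustment over 16473 genes. The procedure was tested on simulated data. Evenness was compared by exact permutation tests. Members, lists and tests were chosen with earlier results of these data known. Named segments were the 10 Ighv, the 10 Igkv and all Iglv members of highest mean TPM and the 3 highest members of each library; a few others were named after their values were seen, as were some list genes. Whether replicate numbers pair libraries was checked, and they were not taken to pair them. Values of 2 list genes are not reported here.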

Additional observations from a re-analysis of the deposited data

How the results depend on the processing

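None of the 67 V segments tested was called in the main analysis. No V segment was called in the 3 comparisons with another pseudocount (0.1), other filters, FPKM or rescaling of TPM without immunoglobulin genes. Quantile normalization, centring on medians, no trend and the replicate block also gave 0 calls in each. Other filters, FPKM and rescaling choose the genes anew, so the segments tested there were not always these 67. In old MIT-001 against old PBS, 1 segment (Igkv6-15) was called with only the 4 libraries compared. Its result also changed without young PBS replicate 1 or 2, in fits that leave 1 library in that group. The same removals changed the result of Igkv6-15 in old PBS against young PBS. In old MIT-001 against young PBS no removal changed the result of a V segment. The standard error of Igkv6-15 in old MIT-001 against old PBS was 0.302 to 0.314 without a young PBS library, against 1.17 with all 6; a lone library is assumed to vary like the others. Among list genes, 4 were called with only the 4 libraries compared in old MIT-001 against old PBS. In old PBS against young PBS 0 were called with no filter, no trend, only the 4 libraries compared or the replicate block. The list genes called also changed in both comparisons when replicates were left out. The share of all genes called is given for the main fit only, so calls in the other fits have no background beside them. Deviations of same-numbered libraries correlated at 0.1752, 0.0066 and 0.2395, so the numbers were not taken as pairs; the block took the 1 call of Igha. With median centring the median log2 fold change was -0.06, -0.09 and -0.17 over all genes and 1.17, -1.78 and -0.77 over the V segments, in the same order of comparisons as in the report.

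The mean number of segments, 49 in old MIT-001, 0 in old PBS and 64 in young PBS, was 70.5, 3.5 and 95.5 at a TPM of 0.5. At a TPM of 5 it was 15.5, 0 and 14.5. The libraries behind these means overlapped, with 31 and 0 segments in old MIT-001 and 28 and 1 in young PBS. Where segments with 1% of V segment TPM were counted it was 27, 29 and 25.5, which no longer follows the sums. Mean old PBS sums of 3.57 (Ighv) and 4.10 (Igkv) TPM became 1.56 and 1.79 in FPKM, a unit that also lowered the sums of old MIT-001 (66.0 to 28.6 and 241 to 104) and of young PBS (102 to 52.2 and 281 to 146), and 2.58 and 3.60 over members alone and 3.27 and 3.93 without pseudogenes. Differences in evenness turned with the measure: Pielou evenness gave -0.0392 (Ighv) and -0.105 (Igkv) for old MIT-001 against old PBS, 0.0441 and 0.0999 for old PBS against young PBS, and 0.00486 (Ighv) for old MIT-001 against young PBS, against inverse Simpson differences of 12.7, 6.71, -17.2, -12.3 and -4.45. Leaving out a replicate gave inverse Simpson differences of -1.94 to 15.4 for Igkv in old MIT-001 against old PBS, of -26.2 to -8.15 (Ighv) and -24.5 to -0.0248 (Igkv) in old PBS against young PBS, and of -13.5 to 4.56 (Ighv) and -17.8 to 6.69 (Igkv) for old MIT-001 against young PBS. The log2 fold change of Ighv2-6 in old MIT-001 against old PBS ranged from -0.28, without old MIT-001 replicate 1, to 0.85, without old MIT-001 replicate 2. The cause of these turns was not tested. The 70.0 to 78.2 reads of old PBS limit every segment value there.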
